A study of Mus musculus with 6 samples.

Results

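Mitochondrial ribosomal proteins are the protein subunits of the ribosome inside mitochondria, and their nuclear genes were followed here in mouse embryonic stem cells before and after removal of Dicer, the enzyme that cuts microRNA precursors. A gene was taken as a member when its symbol in the platform annotation began with Mrpl or Mrps and a number, which gave 77 of 19938 measured genes. The symbols place 48 of them in the large subunit (Mrpl) and 29 in the small subunit (Mrps). Of the 78 proteins listed by hand for the mouse mitochondrial ribosome under such symbols, Mrpl53 was not analysed here because its probe set is also listed for another gene.

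The cells carried floxed Dicer alleles (Dicer Fx/Fx), and total RNA was hybridised to 6 Affymetrix arrays. Both groups are Dicer Fx/Fx embryonic stem cells: 3 arrays come from untreated cells without deletion and 3 from cells given tamoxifen, which had Dicer deleted. Tamoxifen was given for 3 days and the cells were collected 2 days later, on day 5; a collection day for the untreated cells is not given in the sources used here. The sources also do not name the recombinase that tamoxifen acts on or say how many clones were used. The arrays of 1 group are numbered replicates that are not stated to be separate cultures, so the p-values capture variation among these arrays alone, possibly of technical origin. The labels also name wild-type E14 cells treated with tamoxifen, which were not analysed here: tamoxifen, Dicer loss and any difference in days of culture cannot be told apart.

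The mitochondrial ribosome translates the few proteins encoded by mitochondrial DNA, all of them subunits of oxidative phosphorylation. Its RNA comes from the mitochondrial genome, whereas its proteins are made in the cytosol and imported. Part of the proteins have relatives in bacterial ribosomes and part were gained in mitochondria. NRF1, the ETS factor GABPA and YY1 are known as regulators of many nuclear genes for mitochondrial proteins.

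Values are log2 array signals, and a change is the tamoxifen mean minus the untreated mean on that scale. A gene was called at an adjusted p under 0.05 from limma, a linear model fitted across all genes with Benjamini-Hochberg adjustment. The targeted gene, Dicer1, read 11.43, 11.36 and 11.48 on the untreated arrays and 9.53, 9.48 and 9.69 on the tamoxifen arrays, a change of -1.85 ± 0.07 (SE; limma adjusted p = 3.61e-05). Of 9 stem cell markers, including Pou5f1, Sox2 and Nanog, 0 were called, and their untreated means lay between 9.97 and 13.96. Their summed level ran from 16.115 to 16.172 in untreated and from 16.072 to 16.145 in tamoxifen arrays. The summed level of 7 fibroblast markers ran from 9.79 to 10.02 in untreated and from 9.86 to 9.98 in tamoxifen arrays. That of 6 primitive endoderm markers ran from 9.96 to 10.21 and from 9.94 to 10.05. No marker of either cell type was called by limma. Single markers still moved in both directions. Changes ran from -0.24 (Tdgf1) to 0.20 (Tfcp2l1) among stem cell markers and from -0.32 (Thy1) to 0.20 (Col1a1) among fibroblast markers. Among primitive endoderm markers they ran from -0.28 (Sox7) to 0.36 (Pdgfra, limma adjusted p = 0.0518). On bulk arrays, fewer cells with a transcript and less transcript per cell cannot be told apart.

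Part of the genes of the mitochondrial ribosome fell after tamoxifen. Of the 77 genes 12 fell, 0 rose and 65 were not called. Before adjustment, 37 were lower and 0 higher at p under 0.05, against 13.1% of all genes lower and 11.5% higher. Over all genes tested 3.99% were called lower and 3.79% higher. Of the 8751 genes within the members' range of mean signal, 7.18% were called lower and 1991 were lower before adjustment. The median change of the 77 genes was -0.17, beside 0.01 over all genes. The change was below 0 for 70 of the 77 genes, or 90.9%, against 46.8% of all genes. The genes outside this direction lay near 0, the highest being Mrpl17 at 0.10.

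The replicate numbers were taken to pair the arrays, since arrays of the same number deviated together from their group means. This pairing was read from the same values, and the labels name no pairs. With the number as a block, 29 of the 77 genes fell and 0 rose, against 9.54% of all genes lower and 7.87% higher. Among the 8751 genes within the members' range of mean signal, 1472 fell with the block. All 12 genes called without the block were among the 29. The 17 genes called with the block and not without it comprised 11 of the large and 6 of the small subunit, with changes from -0.32 to -0.20 and adjusted p-values from 0.0504 to 0.212 without the block. The count without the block depended on single arrays. Leaving out untreated replicate 2 gave 3 calls and leaving out replicate 3 of that group gave 5. Dropping tamoxifen replicate 2 gave 2 and dropping its replicate 3 gave 3. In these fits 1.01%, 2.23%, 0.672% and 0.988% of all genes were called lower, in that order, against 3.99% with all arrays. Over all 6 fits that leave out an array, the median change stayed between -0.19 and -0.16 and 66 to 71 genes lay below 0. After cyclic loess or renewed quantile normalisation 65 genes lay below 0.

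**Figure D1:**
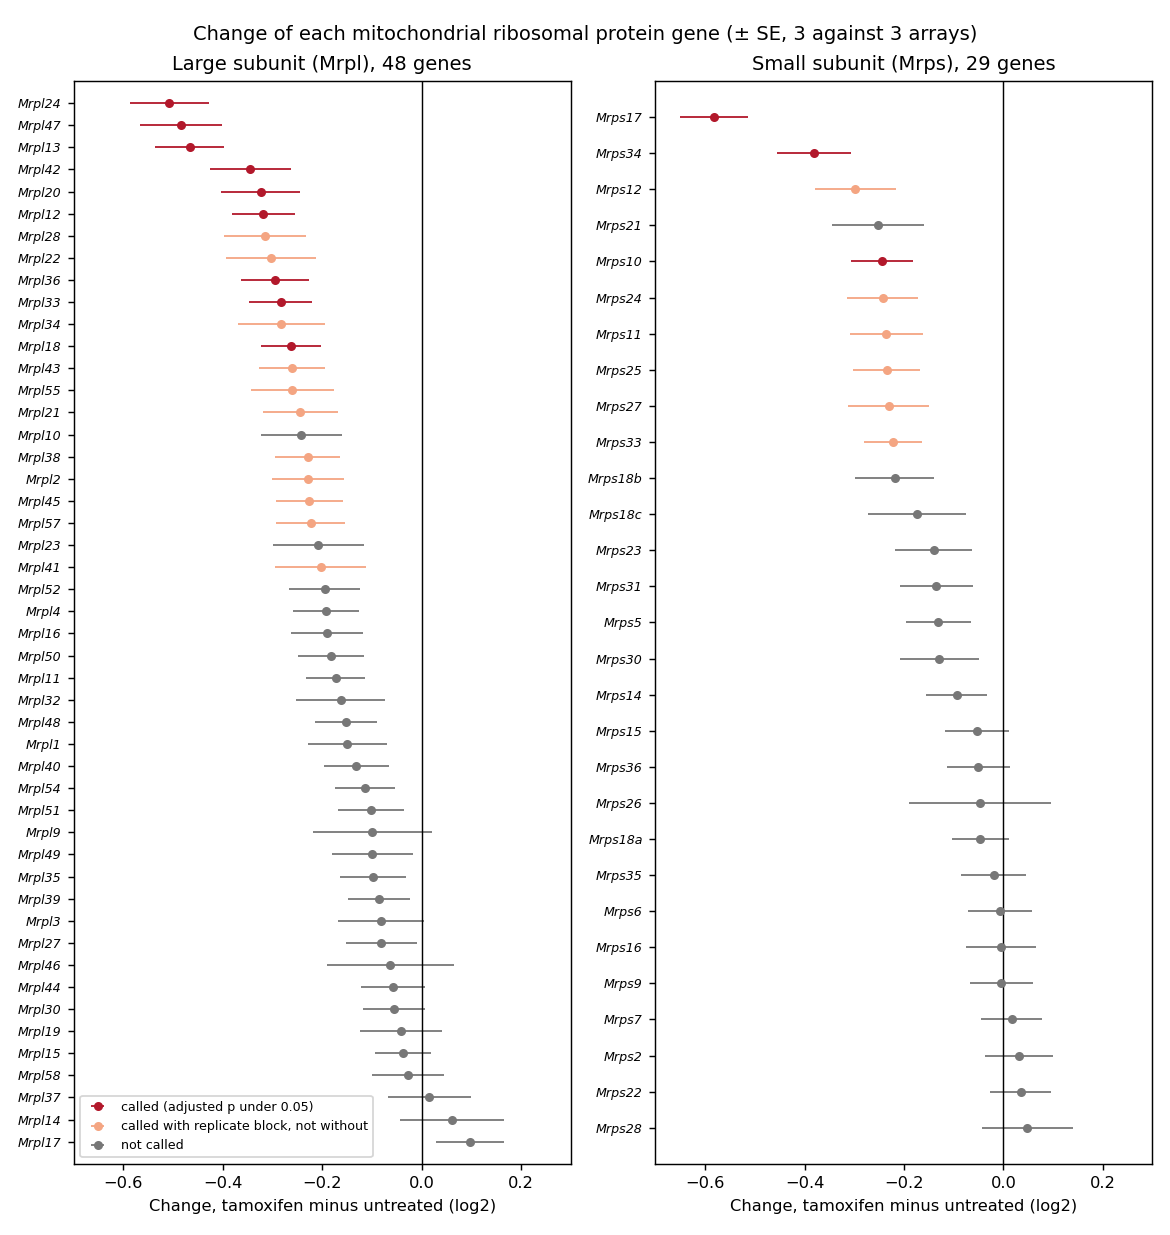
Change of each gene on the log2 scale (x axis, tamoxifen minus untreated, ± SE, 3 against 3 arrays), large subunit left and small subunit right, sorted by change. Red points are the 12 genes called by limma, orange points the 17 called with the replicate block and not without it and grey points the rest; 70 of the 77 points lie left of 0.

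On single arrays the shift was of similar size throughout the treated group. The median distance of the 77 genes from their untreated means was -0.04, 0.03 and 0.01 on untreated replicates 1, 2 and 3, and -0.16, -0.18 and -0.19 on tamoxifen replicates 1, 2 and 3. No tamoxifen array overlapped the untreated arrays in this median, but untreated arrays lie near 0 in it because it is taken from their own means. Without this centring the median signal of the 77 genes was 10.106, 10.107 and 10.098 on the untreated arrays. On the tamoxifen arrays it was 10.024, 10.036 and 10.080. Within the replicate pairs the median change was -0.12, -0.20 and -0.18, and 55 of the 77 genes were lower in all 3 pairs. So were 5184 of all 19938 genes and 3611 of the 8751 genes within the members' range of mean signal. For 42 genes, or 54.5%, all 3 tamoxifen values lay below all 3 untreated values. This held for 14.8% of all genes and for 24.8% of genes within the members' range of mean signal. The reverse held for 0 members and 14.5% of all genes. Among the 42 were the 12 called genes and 30 that were not called.

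Large subunit genes made up 9 of the 12 called. The 9 are 18.75% of the 48, against 3.99% of all genes and 7.18% of genes within the members' range of mean signal. Of the 48 changes 45 were below 0, and the median was -0.19. Mrpl24 and Mrpl47 encode proteins whose bacterial relatives sit at the mouth of the tunnel through which the new chain leaves the ribosome. Mrpl24 read 10.93, 10.83 and 10.91 on the untreated arrays and 10.54, 10.34 and 10.28 on the tamoxifen arrays. It fell by 0.51 ± 0.08 to 70.3% of the untreated level (limma adjusted p = 0.0101), the groups did not overlap, and the call was lost in 1 of the 6 fits without 1 array.

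Mrpl47 read 8.85, 8.92 and 9.05 in untreated cells and 8.59, 8.41 and 8.36 after tamoxifen. It fell by 0.48 ± 0.08 (limma adjusted p = 0.0133), and 3 of the 6 fits that leave out an array called it. Its other, dimmer probe set gave 0.03 ± 0.09, so its probe sets disagreed. Mrpl13, whose bacterial relative is an early-assembling protein of the large subunit, read 9.95, 9.95 and 10.03 in untreated cells and 9.62, 9.49 and 9.42 after tamoxifen. It fell by 0.47 ± 0.07 to 72.4% of the untreated level (limma adjusted p = 0.00889) and kept its call on dropping any single array. In all of Mrpl24, Mrpl47 and Mrpl13, tamoxifen replicate 1 was the treated array nearest to the untreated ones.

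Mrpl12 belongs to the stalk that recruits translation factors, and the protein is also known to bind the mitochondrial RNA polymerase. It read 10.45, 10.51 and 10.53 in untreated cells and 10.19, 10.24 and 10.10 after tamoxifen, a fall of 0.32 ± 0.06 (limma adjusted p = 0.0218) that 2 of the 6 leave-out fits called. Mrpl10 and Mrpl11, which form the base of the stalk, had changes of -0.24 ± 0.08 (limma adjusted p = 0.107) and -0.17 ± 0.06 (adjusted p = 0.117). Both showed separate groups of values without a call, also with the block (0.0505 and 0.0731). Stalk genes therefore had changes below 0 in each case, of which that of Mrpl12 passed the test.

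The other called large subunit genes had changes between -0.34 and -0.26. Mrpl42, a protein found in mitochondria and not in bacteria, fell by 0.34 ± 0.08 (limma adjusted p = 0.039), and Mrpl20, a relative of a bacterial assembly protein, by 0.32 ± 0.08 (0.0445). Mrpl36 fell by 0.29 ± 0.07 (adjusted p = 0.0363), Mrpl33 by 0.28 ± 0.06 (0.0308) and Mrpl18 by 0.26 ± 0.06 (0.0361). Each of these 5 genes had all treated arrays below all untreated arrays. Their calls rested on the full set of arrays: of the 6 leave-out fits, 0 called Mrpl33 and 1 called each of the others. Mrpl20, Mrpl36 and Mrpl18 were also not called after cyclic loess (0.0533, 0.0545 and 0.0603).

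**Figure D2:**
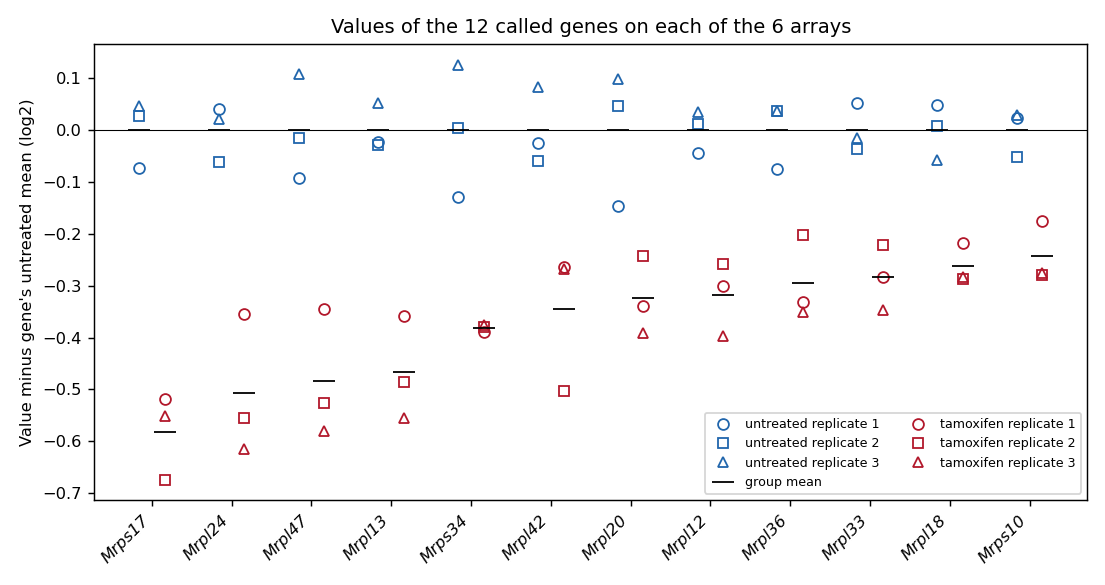
Values of the 12 called genes on each array, as the log2 signal minus the gene's untreated mean (y axis); marker shape gives the replicate number, colour the group and the bar the group mean. All tamoxifen points lie below all untreated points of the same gene, and the treated means run from -0.58 for Mrps17 to -0.24 for Mrps10.

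Large subunit genes at the other end of the order did not pass the test. The highest were Mrpl17 at 0.10 ± 0.07 (95% interval -0.06 to 0.25), Mrpl14 at 0.06 ± 0.11 (-0.18 to 0.30) and Mrpl37 at 0.02 ± 0.08 (-0.17 to 0.20). Mrpl17 read 10.20, 10.25 and 10.29 in untreated and 10.30, 10.45 and 10.29 in treated cells, so its groups overlapped. Mrpl58, which has kept the activity of a release factor within the ribosome, had a value of -0.03 ± 0.07 (95% interval -0.19 to 0.14). Mrpl15 gave -0.04 ± 0.06 (95% interval -0.17 to 0.09). For these genes the intervals do not reach the change of Mrpl24.

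Further large subunit genes were not called on all arrays without the block. Mrpl39 read 12.07, 12.17 and 12.23 in untreated cells and 12.07 on each treated array, a change of -0.09 ± 0.06. Mrpl40 gave -0.13 ± 0.06, and Mrpl44, a protein with a ribonuclease-like fold, -0.06 ± 0.06. Mrpl23, another protein of the tunnel exit, read 11.86 on tamoxifen replicate 1 but 11.56 and 11.53 on the other treated arrays, beside 11.81 to 11.89 in untreated cells. Its change of -0.21 ± 0.09 was not called (limma adjusted p = 0.21), except without tamoxifen replicate 1 (0.034). Mrpl45, which tethers the ribosome to the inner membrane, had a change of -0.23 ± 0.07 that was called with the block and not without it (adjusted p = 0.0802, or 0.0428 with the block). The largest changes of large subunit genes called with the block and not without it were those of Mrpl28, Mrpl22 and Mrpl34, at -0.32, -0.30 and -0.28.

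Among small subunit genes 3 fell, 0 rose and 26 were not called. The 3 are 10.3% of the 29, against 3.99% of all genes and 7.18% of genes within the members' range of mean signal. Of the 29 changes 25 were below 0, and the median was -0.13. Mrps17, the relative of a bacterial protein that binds ribosomal RNA early in assembly, had the largest change of all 77 genes. It read 8.54, 8.64 and 8.66 in untreated cells and 8.09, 7.94 and 8.06 after tamoxifen. It fell by 0.58 ± 0.07 to 66.8% of the untreated level, with a 95% interval of the change from -0.74 to -0.43 (limma adjusted p = 0.00392). The groups were far apart, and dropping any single array kept the call.

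Mrps34, a subunit found in mitochondria only, whose loss in patients causes a form of Leigh syndrome, read 8.60, 8.73 and 8.85 in untreated cells and 8.34, 8.35 and 8.35 after tamoxifen. It fell by 0.38 ± 0.07 (limma adjusted p = 0.02), with calls in 3 of the 6 leave-out fits. The treated values nearly coincided, whereas the untreated ones were spread more widely. Mrps10 fell by 0.24 ± 0.06 (limma adjusted p = 0.0491), just past the threshold, and 0 of the 6 leave-out fits called it. Mrps12, the relative of a bacterial protein at the decoding centre, read 8.40, 8.12 and 8.20 in untreated and 7.97, 7.88 and 7.97 in treated cells. Its change of -0.30 ± 0.08 was called with the block and not without it (adjusted p = 0.0607, or 0.0171 with the block); it also passed after median centring and without the dimmest 40% of genes.

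Small subunit genes were spread from these values to 0. Mrps21, Mrps24 and Mrps18b had changes of -0.25 ± 0.09, -0.24 ± 0.07 and -0.22 ± 0.08 with separate groups of values, and limma did not call them (adjusted p = 0.133, 0.0765 and 0.132). Mrps24 passed with the block (0.0316). Mrps5 and Mrps15 gave -0.13 ± 0.07 and -0.05 ± 0.06. The highest values were those of Mrps28 (0.05 ± 0.09), Mrps22 (0.03 ± 0.06), Mrps2 (0.03 ± 0.07) and Mrps7 (0.02 ± 0.06), followed by Mrps9 at 99.7% of its untreated level. For Mrps7, which organises the head of the small subunit, the 95% interval ran from -0.12 to 0.16. The intervals of all 26 genes without a call thus lay above the change of Mrps17, and some of these genes missed the threshold narrowly.

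Symbols do not always name the right subunit. Mrps30 and Mrps18a encode proteins that sit in the large subunit of the mammalian ribosome, and Mrps36 is now counted as a part of the 2-oxoglutarate dehydrogenase complex. None of them was called by limma: their changes were -0.13 ± 0.08, -0.05 ± 0.06 and -0.05 ± 0.06, with adjusted p-values of 0.366, 0.668 and 0.678. With proteins placed by structure, 9 of 50 large subunit genes (18%) and 3 of 26 small subunit genes (11.5%) fell. Of all genes 3.99% were called lower, and of those within the members' range of mean signal 7.18%. The medians were then -0.19 and -0.14. The difference between the subunits was not tested.

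Genes were also set apart by the origin of the protein. Of 46 genes listed by hand as encoding a protein with a relative in bacterial ribosomes 10 fell, with a median of -0.19. Of the 30 other genes placed in the ribosome 2 fell (Mrpl42 and Mrps34), with a median of -0.14. These counts are 21.7% and 6.67%, against 3.99% of all genes and 7.18% of genes within the members' range of mean signal. In the large subunit the medians were -0.22 for 30 genes with bacterial relatives and -0.13 for 20 others. In the small subunit they were -0.11 for 16 genes and -0.18 for 10. The split parted related symbols: Mrps18b (-0.22) was counted among the 10 and Mrps18c (-0.17) among the 16. The size of the small subunit difference depends on such placements. None of these differences was tested.

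Members had brighter probe sets than most genes, and change moved with signal. Their mean signals lay between 8.09 and 12.11, a range that says nothing of transcript amounts, since probe sets of different genes are not on one scale. With all genes cut into 10 groups of equal size by mean signal, the median change ran from 0.06 in group 4 to -0.06 in group 7 and was -0.04 in the brightest. In groups 6 to 10, which hold all members, the members' medians were -0.20, -0.23, -0.15, -0.19 and -0.13. Over all 8751 genes within the signal range of the members, the median was -0.05 and 59.8% of changes were below 0. Of these genes 7.18% were called lower, 1472 genes were called lower with the block and 1991 were lower at an unadjusted p under 0.05. The part of this trend in the members' values was not tested.

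**Figure D3:**
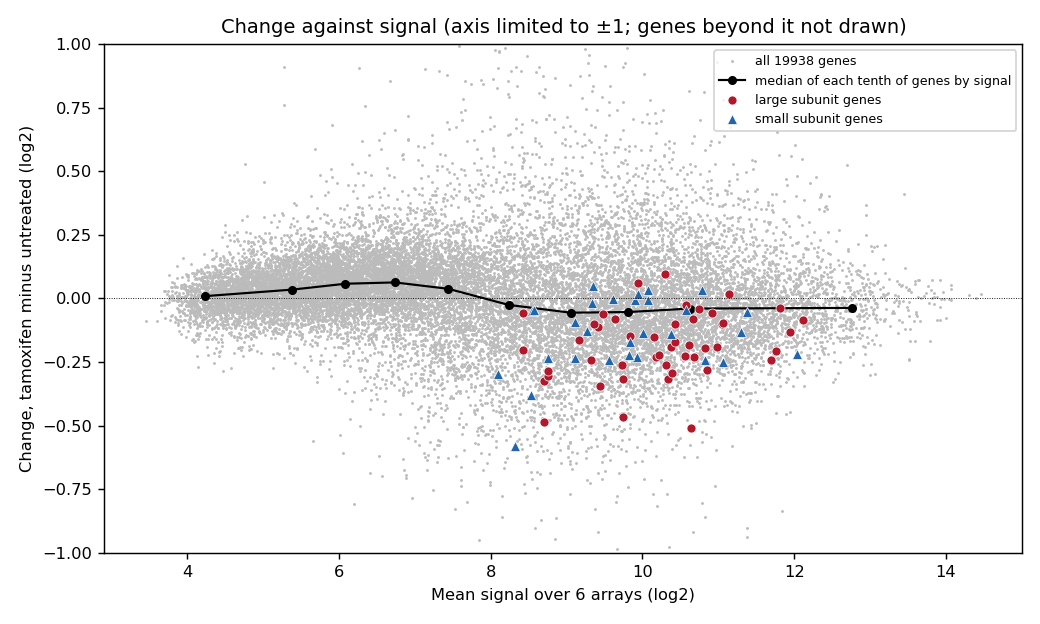
Change on the log2 scale (y axis) against mean log2 signal over 6 arrays (x axis). Grey dots are all genes within the drawn range, the black line joins the medians of 10 equal groups of genes by signal, red circles are large and blue triangles small subunit genes. The members lie at signals above 8, where the line is between -0.06 and -0.03, and most of them lie below it.

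For 8 members the annotation lists 2 probe sets, of which the brighter was used. Probe set numbers run along the chromosomes, and for Mrpl27, Mrpl41, Mrpl51 and Mrps33 the brighter probe set has a number among those of genes on another chromosome than the gene's own. The same holds for the single probe set of Mrpl48. None of these 5 genes is among the 12 called, but Mrpl41 and Mrps33 are among the 17 called with the block and not without it. Whether these 5 probe sets read the gene they are named for was not tested. In an alternative chosen after seeing the data, the probe sets numbered on the gene's own chromosome were used. Mrps33 gave -0.16 ± 0.06 in place of -0.22 ± 0.06, Mrpl41 -0.14 ± 0.07 in place of -0.20 ± 0.09, Mrpl51 0.05 ± 0.06 in place of -0.10 ± 0.07 and Mrpl27 -0.03 ± 0.07 in place of -0.08 ± 0.07. All 12 calls were kept, 69 of the 77 changes lay below 0 and the median was -0.16.

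Promoters were read for 68 of the 77 genes from RefSeq (build GRCm38.p6), as the 250 bases before the first listed start. The windows of the 3 called genes with the largest changes are shown 5′ to 3′ on the gene's strand, so that their make-up can be compared with the counts that follow. Capitals mark matches to the 7 motifs searched, and windows without a match are in lower case throughout.
Mrps17 chr5:129715247-129715496, plus strand: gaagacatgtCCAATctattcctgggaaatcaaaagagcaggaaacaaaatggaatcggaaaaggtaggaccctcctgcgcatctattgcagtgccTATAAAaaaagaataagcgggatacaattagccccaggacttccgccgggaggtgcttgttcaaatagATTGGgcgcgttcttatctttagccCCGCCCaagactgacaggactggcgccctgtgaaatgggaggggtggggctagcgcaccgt
Mrpl24 chr3:87919294-87919543, plus strand: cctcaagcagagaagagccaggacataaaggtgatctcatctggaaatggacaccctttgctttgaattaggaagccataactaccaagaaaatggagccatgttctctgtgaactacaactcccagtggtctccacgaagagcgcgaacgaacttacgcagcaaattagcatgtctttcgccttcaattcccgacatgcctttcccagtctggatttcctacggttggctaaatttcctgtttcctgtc
Mrpl47 chr3:32736756-32737005, minus strand: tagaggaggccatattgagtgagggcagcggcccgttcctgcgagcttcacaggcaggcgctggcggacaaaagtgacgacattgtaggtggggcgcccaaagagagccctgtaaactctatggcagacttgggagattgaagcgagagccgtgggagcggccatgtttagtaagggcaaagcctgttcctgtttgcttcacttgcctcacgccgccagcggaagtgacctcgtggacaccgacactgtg

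The Mrps17 window holds CCAAT boxes 240 and 86 bases before the start, a TATAAA match 154 bases before it and a GC box 61 bases before it. The Mrpl24 and Mrpl47 windows hold none of the 7 motifs. All motifs were searched on both strands as exact letters, and no motif contains another. The NRF1 core GCATGCGC was found in 8 of 68 member windows, or 11.8%, against 3.3% of 15012 windows of measured protein-coding genes and 2.32% of all 27025 windows. The ETS motif CCGGAAGT stood in 9 (13.2%, against 4.14% and 2.93%) and the YY1 motif AAGATGGC in 4 (5.88%, against 1.58% and 1.59%).

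The other motifs were nearer to the general share. The E-box CACGTG stood in 5 member windows (7.35%, against 7.07% of protein-coding and 6.05% of all windows), CCAAT in 24 (35.3%, against 35.6% and 34.5%) and the GC box GGGCGG in 33 (48.5%, against 46.7% and 32.9%). TATAAA stood in 4 (5.88%, against 11.3% and 13.0%). Of the 10 called genes with a window, 1 each held the NRF1, ETS and YY1 motifs (Mrpl33, Mrpl18 and Mrpl36) and 2 an E-box (Mrpl20 and Mrpl36). CCAAT stood in 6 of these 10 windows, the GC box in 3 and TATAAA in 1. These matches are descriptions of letters, not of bound sites.

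Many members share a promoter region with a gene on the opposite strand. A second gene started within 1000 bases and ran the other way for 26 of 68 members, or 38.2%, against 14.3% of 15012 measured protein-coding genes. In 1 case both genes are members: the starts of Mrps11 and Mrpl46 lie 42 bases apart, and their changes were -0.24 ± 0.07 and -0.06 ± 0.13. Of the called genes, Mrpl47 lies opposite Ndufb5, a complex I subunit, and Mrpl18 opposite Tcp1, a subunit of the cytosolic chaperonin. Ndufb5 and Tcp1 had values of -0.05 ± 0.07 and -0.02 ± 0.06 (limma adjusted p = 0.69 and 0.862), beside the falls of 0.48 and 0.26 in their neighbours. Mrps12 lies 147 bases from Sars2, the mitochondrial seryl-tRNA synthetase, which gave -0.01 ± 0.08. Of 24 measured partners 1 fell, against 3.99% of all genes. It was Ptcd2, an RNA-binding protein of mitochondria, at -0.32 ± 0.07 (limma adjusted p = 0.0303), opposite Mrps27 (-0.23 ± 0.08, adjusted p = 0.123). The median change of the partners was -0.08, with the members Mrps11 and Mrpl46 counted among them as each other's partner.

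Factors that build the mitochondrial ribosome were described as a list of their own. Of 31 assembly and RNA modification factors 8 fell, 0 rose and 23 were not called, with a median of -0.20 and 27 changes below 0; the same shares of all genes apply (3.99% lower). The GTPases Mtg1 and Gtpbp10, which act on the maturing large subunit, fell by 0.51 ± 0.10 (limma adjusted p = 0.0195) and 0.43 ± 0.07 (0.0135). Noa1, a GTPase of mitochondrial ribosome assembly, fell by 0.32 ± 0.07 (0.0232) and Ngrn, which stabilises the large ribosomal RNA, by 0.31 ± 0.07 (0.0299). All treated values of these 4 genes lay below all untreated ones. With the block 15 of the list fell, against 9.54% of all genes. Without tamoxifen replicate 2 or without untreated replicate 2 the count was 0, where 0.672% and 1.01% of all genes were called lower. It was 1 without either array of replicate 3 (0.988% for tamoxifen and 2.23% for untreated), and 5 without untreated replicate 1 (2.93%).

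Proteins of the ribosome with other symbols were measured for 4 genes, of which limma called 0, also at an unadjusted p under 0.05. Dap3, a GTP-binding protein of the small subunit, had a change of -0.12 ± 0.06 (adjusted p = 0.274) and Chchd1, also of the small subunit, of -0.12 ± 0.07 (0.33). Of 16 translation factors and messenger RNA regulators 1 fell and 0 rose, against 3.99% and 3.79% of all genes, with a median of -0.07. The gene that fell was Taco1, a translational activator of cytochrome oxidase subunit I, at -0.35 ± 0.06 (adjusted p = 0.0148). The list of mitochondrial tRNA synthetases had 19 genes, among them Gatb, Gatc and Qrsl1, which are not synthetases. Of the 19 genes 2 fell and 0 rose, against the same shares of all genes, with a median of -0.07. Hars2, for histidine, fell by 0.43 ± 0.07 (limma adjusted p = 0.0106) and Nars2, for asparagine, by 0.29 ± 0.07 (0.0408).

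Among 20 genes that copy, transcribe or process mitochondrial DNA and RNA, 3 fell and 1 rose, against 3.99% and 3.79% of all genes. Their median was -0.12. Trmt10c, a subunit of mitochondrial RNase P, fell by 0.29 ± 0.07 (limma adjusted p = 0.0399), the nuclease Mgme1 by 0.27 ± 0.06 (0.0308) and the single-stranded DNA-binding protein Ssbp1 by 0.27 ± 0.06 (0.0373). Tfb2m, the initiation factor that opens mitochondrial promoters, rose by 0.33 ± 0.07 (0.0341). Of 21 import and protease genes limma called 0, with a median of -0.10. Before adjustment 1 was higher and 4 lower at p under 0.05, against 11.5% and 13.1% of all genes. Tomm20 and Oma1 had changes of -0.23 ± 0.06 and -0.42 ± 0.11, called with the block and not without it (adjusted p = 0.051 and 0.0566, or 0.0277 and 0.00598 with the block). Both also passed with array weights and without the dimmest 40% of genes, and Oma1 in 2 of the 6 leave-out fits. Calls of Trmt10c, Mgme1, Ssbp1, Tfb2m and Nars2 each held in 1 of the 6 leave-out fits.

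Regulators of mitochondrial biogenesis were not called by limma in the unblocked fit: 0 of 11 passed, 1 being lower at an unadjusted p under 0.05, and the median was 0.02. Nrf1, Gabpa and Yy1 had changes of 0.02 ± 0.06, -0.02 ± 0.06 and -0.08 ± 0.08. Myc, a transcription factor that promotes ribosome and mitochondrial biogenesis, varied most between arrays, at 9.40, 10.75 and 10.01 in untreated cells and 8.97, 9.77 and 9.10 after tamoxifen. The groups overlapped, yet each pair was lower after tamoxifen, with changes of -0.44, -0.98 and -0.91. Its change of -0.78 ± 0.32 was not called without the block (limma adjusted p = 0.174) and was called with it (0.00224). Its relative Mycn had a value of 0.18 ± 0.08 (adjusted p = 0.231).

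The cytosolic ribosome, which translates nuclear transcripts, was set beside the mitochondrial one. Of 61 genes for its proteins, retrogene relatives included, limma called 0, 36 changes lay below 0 and the median was -0.01. The 36 are 59.0%, against 46.8% of all genes and 61.7% in the brightest of the 10 signal groups. These probe sets were brighter than those of the members, with a median mean signal of 12.94 against 10.07. Whether they read the genes they are named for was not tested. Before adjustment 1 was higher and 5 lower at p under 0.05, against 11.5% and 13.1% of all genes. With the block 4 fell, against 9.54% of all genes. Oxidative phosphorylation subunits, the machinery to which the products of the mitochondrial ribosome belong, had 9 falls and 0 rises among 82 genes, with a median of -0.11 and 72 changes below 0, against 3.99% of all genes called lower. With the block 19 fell and 1 rose, against 9.54% and 7.87% of all genes. Examples are Cox7a2l at -0.51 ± 0.09 (limma adjusted p = 0.0152) and Uqcrq at -0.42 ± 0.07 (0.0112). Differences between these groups and the mitochondrial ribosome were not tested.

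**Figure D4:**
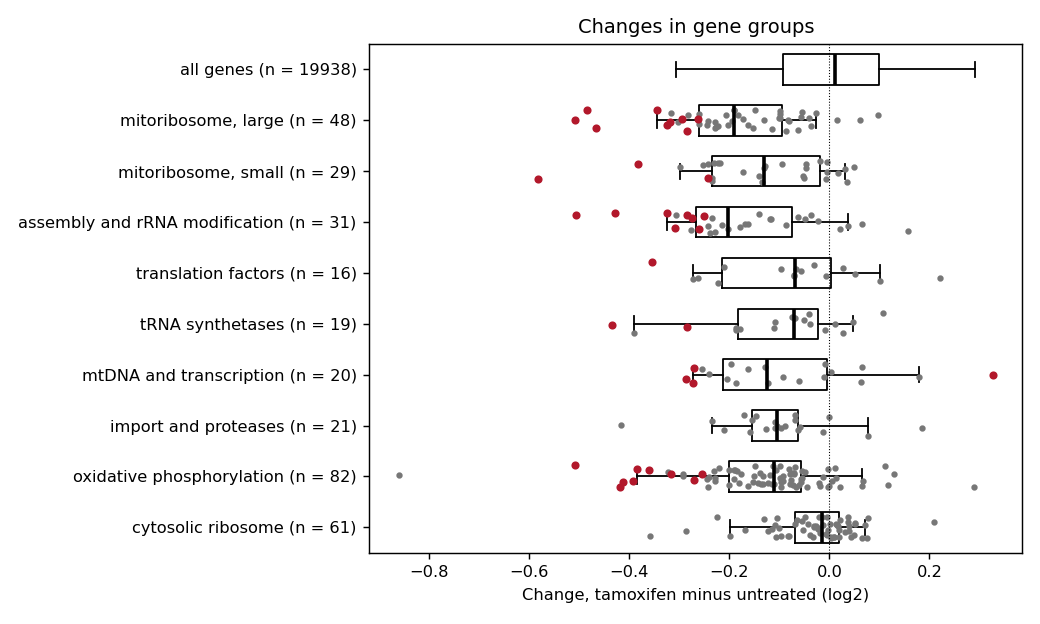
Changes on the log2 scale (x axis) in gene groups (y axis, with the number of genes). Boxes show quartiles and median, whiskers the 5th and 95th percentiles, and dots single genes, red where called by limma; the box of all genes has no dots. The medians are -0.19 and -0.13 for the subunits of the mitochondrial ribosome, -0.01 for the cytosolic ribosome and 0.01 for all genes.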

How the data were processed

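Total RNA of 6 cell samples was hybridised to Affymetrix arrays. The deposited values are log2 intensities that the authors summarised with RMA (robust multi-array average). The submitters' processing notes name Affymetrix Expression Console 1.2; an annotation build is not given in the sources used here. RMA quantile-normalises the arrays, so a shift common to most transcripts would not show, and it compresses changes of dim probe sets. The values ran from 3.18 to 14.64 with array medians of 7.19 to 7.26, which is the basis for taking them as log2. The table had 0 columns of other samples. Precision is limited by how few arrays there are.

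Of 35556 probe sets, 21789 had 1 gene symbol in the platform annotation, 1621 several and 12146 none. The brightest probe set of a gene was kept, and 19938 genes entered a two-sided limma fit without a filter (lmFit and eBayes, limma 3.58.1, R 4.3.3). Errors are standard errors. The code was tested on simulated data. Deviations of same-numbered arrays from their group means correlated across genes at 0.356, 0.345 and 0.389, so the numbers were taken to pair the arrays. Over the members alone these correlations were 0.447, 0.266 and 0.178, beside 0.126 for untreated replicate 2 with tamoxifen replicate 3.

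Members and lists were chosen with earlier results of these data known. Named genes were all called members, per subunit the 5 brightest, 3 dimmest, 5 highest and 5 lowest changes, members placed differently by structure, and up to 4 called genes a direction (otherwise the 2 smallest p-values) per list; others were picked for their role or partner after their values were seen. Alternatives are given in the closing section. A planned search for genes of like pattern was not run. Promoter sequences are from RefSeq. Figures were drawn with matplotlib 3.10.9.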

Additional observations from a re-analysis of the deposited data

How the results depend on the processing

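Without 1 array the number of mitochondrial ribosomal protein genes called ran from 2 to 12 (large subunit 1 to 9, small subunit 1 to 3) and that of the 122 genes of the 7 mitochondrial lists from 0 to 12, against 12, 9, 3 and 15 with all arrays. In these fits 0.672% to 4.48% of all genes were called lower, against 3.99% with all arrays. With the replicate block the counts were 29, 20, 9 and 31, and with array weights 28, 20, 8 and 25. Of all genes 9.54% and 6.99% were then called lower. After renewed quantile normalisation the counts were 7, 5 and 9 for members, large subunit and lists, with 3.19% of all genes called lower. In a fit over all probe sets and at an adjusted p under 0.01 they were 2, 1, 1 and 0. Of all genes 0.502% and 0.487% were called lower there. The members were Mrps17 (limma adjusted p = 0.0317 over all probe sets) and Mrpl13 (0.0464) in both cases. Without the dimmest 40% of genes, or after median centring, 5 small subunit genes were called, where 8.02% and 5.29% of the genes fitted were called lower. No member was called higher in any of these fits, and the median change of the members stayed between -0.21 and -0.14. The number of arrays and the distance of signals from background, which RMA does not report, limit what changes of this size can show.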
